A study of Mus musculus with 12 samples.

Results

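C-type lectin family genes encode receptors and secreted proteins built around a C-type lectin fold. They were taken as every gene of the dorsal skin table whose symbol starts with Clec, or with Klra to Klrk, followed by a digit, which gave 51 of 36400 genes. RNA sequencing covered 12 BALB/c mice, females purchased at 6 weeks of age, 3 in each of 4 groups, with skin collected on day 30 of the treatment schedule. The control group received the vehicle of acetone and olive oil. The DNCB group was sensitized with 1% and challenged with 0.5% 1-chloro-2,4-dinitrobenzene, a hapten that induces atopic dermatitis-like lesions. The scMSC and scivMSC groups received the same DNCB treatment plus 4 doses of 2000000 human umbilical cord mesenchymal stem cells (MSCs) between days 13 and 25, injected subcutaneously in 100 µL for scMSC and split evenly, 50 µL by each route, between subcutaneous and tail vein injection for scivMSC. All 3 groups other than control therefore carry DNCB, and no DNCB group injected with the culture solution alone was among the 12 mice. Each library is whole skin of 1 mouse, so fewer cells of a type and less RNA per cell cannot be told apart.

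Myeloid C-type lectins read microbial sugars, glycolipids and damaged cells. Clec7a (Dectin-1, a β-glucan receptor) carries its own activating motif, Clec4d (MCL), Clec4e (Mincle, which binds mycobacterial glycolipid) and Clec4n (Dectin-2, a mannan receptor) signal through the Fc receptor γ chain encoded by Fcer1g, and Clec5a (MDL-1) signals through the adaptor encoded by Tyrobp. These routes meet at the kinase Syk and the scaffold Card9. The Klr genes encode the lectin-like receptors of natural killer (NK) cells, and several Clec2 genes encode their ligands on other cells. Other members are held by dendritic cells, resident macrophages, endothelium or platelets, or are secreted into the matrix.

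The 51 members were sorted by these roles into 4 myeloid pattern receptors, 8 dendritic and other myeloid receptors, 3 resident macrophage receptors, 19 NK-type receptors, 7 Clec2 ligands, 4 vascular and platelet lectins, 3 secreted lectins and 3 remaining members. Their genes are clustered, with 44 of the 51 on chromosome 6. Of the 51, 28 had a mean of at least 0.1 FPKM (fragment counts scaled by gene length and library size) over the 12 libraries and were tested. The other 23 had means between 0.00421 and 0.0925 FPKM and reached at most 0.389 FPKM in any library, and were left out of the main tests. Levels below are FPKM, and log2 fold changes and adjusted p-values come from edgeR's quasi-likelihood test on estimated counts of 21890 genes. Calls needed an adjusted p (Benjamini-Hochberg) below 0.05 together with a log2 fold change above 1 in size.

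The 250 bases before the RefSeq start sites (GRCm38.p6) of Clec4d, Clec4e, Clec7a, Clec5a and Klra17 are shown for the 4 myeloid pattern receptors and the NK-type gene called in all 3 DNCB comparisons. Each of these 5 was higher in all 3 DNCB libraries than in the 9 others, as were 8 further tested members. Capitals mark the letters TTNNGNAA of a C/EBP-type motif on either strand, where C/EBP factors are a family active in myeloid cells.
Clec4d (chr6:123261857-123262106, plus strand): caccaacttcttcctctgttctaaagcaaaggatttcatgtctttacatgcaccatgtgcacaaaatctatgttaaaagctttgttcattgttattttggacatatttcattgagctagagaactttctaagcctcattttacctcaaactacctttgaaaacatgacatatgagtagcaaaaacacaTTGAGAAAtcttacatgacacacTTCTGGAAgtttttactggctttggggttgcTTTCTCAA
Clec4e (chr6:123289872-123290121, minus strand): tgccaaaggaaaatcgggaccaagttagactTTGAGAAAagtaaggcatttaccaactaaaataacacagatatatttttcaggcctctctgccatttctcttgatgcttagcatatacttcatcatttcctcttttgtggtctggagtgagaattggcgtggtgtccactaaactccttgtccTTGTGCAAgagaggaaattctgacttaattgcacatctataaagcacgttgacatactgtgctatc
Clec7a (chr6:129472780-129473029, minus strand): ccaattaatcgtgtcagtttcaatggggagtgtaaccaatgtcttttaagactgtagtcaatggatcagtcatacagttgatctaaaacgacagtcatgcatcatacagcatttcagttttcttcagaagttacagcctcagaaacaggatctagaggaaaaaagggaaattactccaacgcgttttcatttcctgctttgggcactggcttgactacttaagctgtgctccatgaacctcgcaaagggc
Clec5a (chr6:40585806-40586055, minus strand): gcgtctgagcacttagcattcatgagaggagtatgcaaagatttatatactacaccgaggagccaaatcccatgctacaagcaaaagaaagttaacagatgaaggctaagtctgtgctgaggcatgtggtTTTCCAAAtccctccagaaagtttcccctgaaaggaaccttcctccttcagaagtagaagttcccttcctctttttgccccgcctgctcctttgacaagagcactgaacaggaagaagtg
Klra17 (chr6:129876673-129876922, minus strand): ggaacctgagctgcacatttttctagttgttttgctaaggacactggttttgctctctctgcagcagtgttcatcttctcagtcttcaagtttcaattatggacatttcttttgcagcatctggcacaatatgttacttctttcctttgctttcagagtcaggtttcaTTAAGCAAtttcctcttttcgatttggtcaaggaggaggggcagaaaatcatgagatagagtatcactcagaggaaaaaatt
Clec4d held 3 such matches within 62 bases of its start, Clec4e held 2, and Clec5a and Klra17 held 1 each. Over the 41 members with a promoter in the RefSeq table, 24 held the letters, against 36.8% of all 32851 promoters of this length. GAGGAAGT for PU.1 was in 0 of 41 (2.44% of all promoters), TTCNNNGAA for STAT in 3 (7.02%), TGANTCA for AP-1 in 5 (6.75%) and an NF-kB-type motif in 1 (1.41%). A member was counted if any of its promoters held the letters, whereas the percentages are per promoter. The 2 are therefore not on the same unit. None of the 5 motifs was in the window of Clec7a, whose table entry has 2 start sites, of which the first was used. These matches are descriptions of letters, and no match says only that the letters are not in this window.

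DNCB skin held more RNA of several family members than control skin, and none of the 28 tested members was called lower. Against control, 8 of 28 members were called, all higher in DNCB, where 14.2% of all tested genes were called in either direction and 6.59% higher. Against scMSC, 11 of 28 were called, all higher in DNCB, beside 8.5% of all genes in either direction and 3.84% higher. Against scivMSC, 8 of 28 were called, again all higher in DNCB, beside 5.46% and 2.33%. The 3 comparisons share the DNCB libraries. The 28 members had a median log2 fold change of 0.65, 1.17 and 1.24 in these comparisons in turn, and the same with genes at the detection floor set to their bound, while the medians of all tested genes were 0.02, -0.02 and -0.02. In 13 of the 28 members all 3 DNCB libraries lay above the 9 others, as in 9.44% of all tested genes, and in 0 they lay below them, against 4.03%. Klra17, included in these counts, passed the filter of 0.1 FPKM only through its DNCB libraries. Its means were 0, 0.0128 and 0.0204 FPKM in control, scMSC and scivMSC. Its calls and its lack of overlap are therefore no independent evidence.

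Called in all 3 comparisons were Clec4d, Clec7a, Clec5a, Clec4n, Klra17 and Clec14a. Clec4a2 and Clec12a were called against both MSC groups, and Clec2e against control and scMSC. Clec4e was called against control alone, and Clec2f and Clec11a against scMSC alone. The remaining 16 tested members were called in none of them. The call of a member in 1 comparison and not in another does not show that the 2 differ.

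The counts changed as single libraries were left out, which also leaves fewer samples to test. Against control they ran from 6 to 9 as each library was left out, with 6 when DNCB replicate 1 was missing. Against scMSC the range was 6 to 12, with 7 without any 1 DNCB library or scMSC replicate 2, and 6 without scMSC replicate 3. Against scivMSC it was 2 to 9, with 3, 2 and 3 without DNCB replicates 1, 2 and 3, 2 without scivMSC replicate 1 and 4 without scivMSC replicate 3. Clec7a was called in all 3 comparisons under each of these settings.

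**Figure D1:**
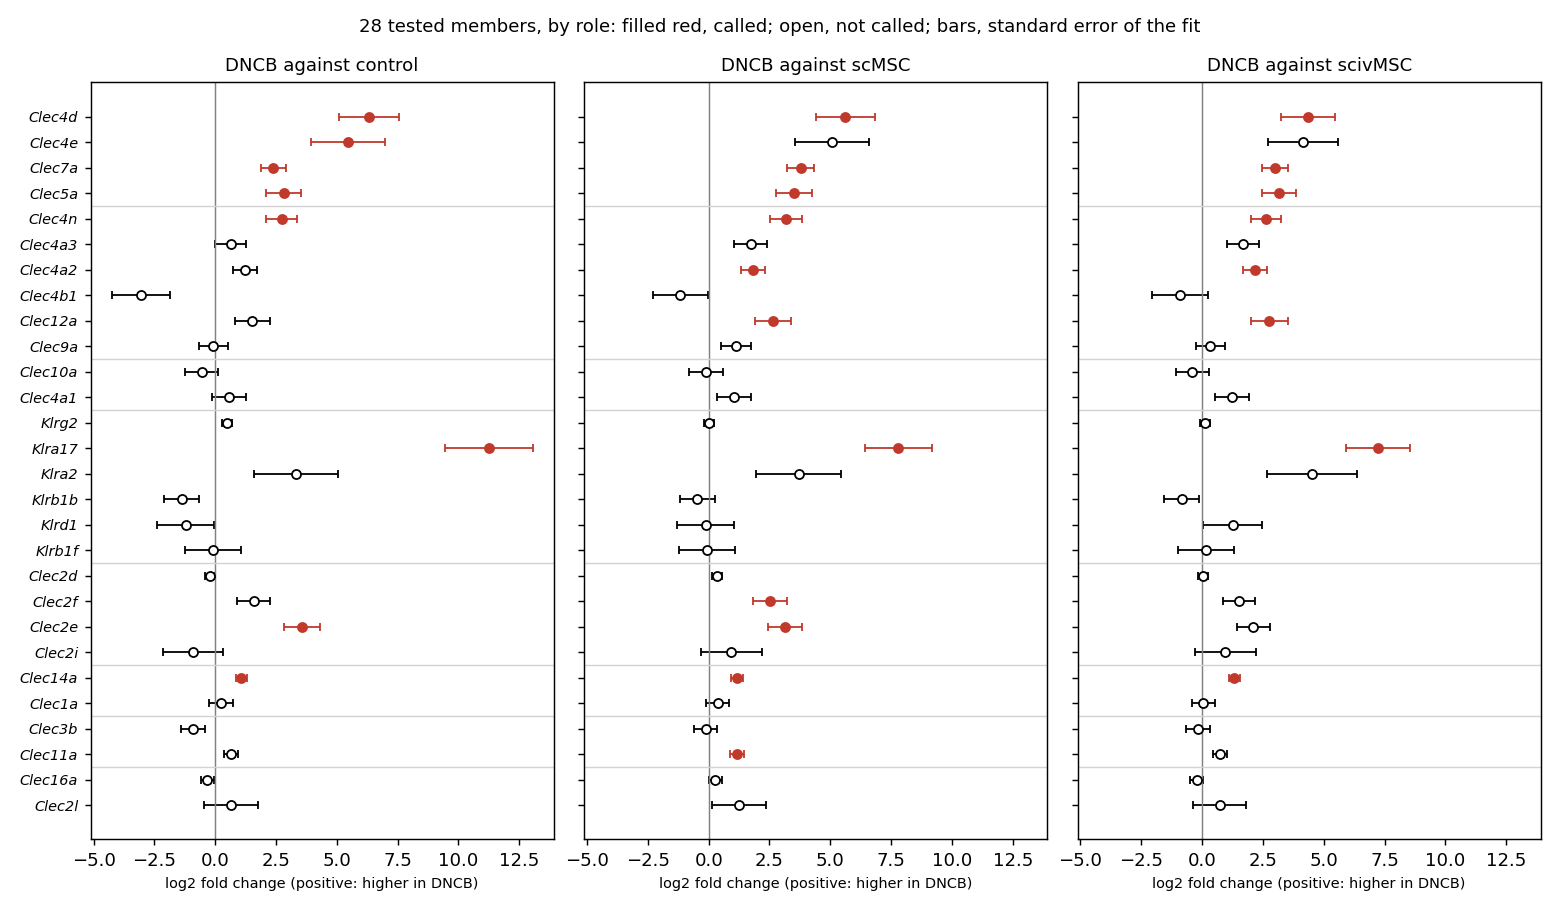
Log2 fold changes of the 28 tested members (x axis, positive where DNCB was higher) against control, scMSC and scivMSC, with standard errors as bars and grey lines between roles. Red filled points mark the 8, 11 and 8 members called, all of them right of 0, and open points the others. The Klra17 points depend on how the fit treats groups near 0 counts and are no measure of its fold.

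The 4 myeloid pattern receptors were low in control skin and formed a large share of the family in DNCB skin. Summed, they ran from 0.904 to 2.98 FPKM over the control libraries and from 48.6 to 76.6 FPKM over the DNCB libraries. The sums were 0.531 to 2.64 FPKM with scMSC and 2.20 to 7.18 FPKM with scivMSC. The DNCB libraries did not overlap any other group. Of the family's FPKM they held a mean of 0.892% in control and 22.9% in DNCB, with 1.13% and 2.29% in the scMSC and scivMSC groups. All 4 were called higher against control, and 3 of 4 against each MSC group.

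Clec4d (chr6:123262111-123275265) showed the highest level of the 4 in every DNCB library. It measured 1.20, 0 and 0.334 FPKM in the 3 control libraries and 55.0, 54.5 and 33.1 FPKM in the 3 DNCB libraries. In scMSC it measured 1.24, 1.38 and 0.175 FPKM, and in scivMSC 0.951, 4.04 and 1.96 FPKM. The lowest DNCB library thus stood several times above the highest of the 9 others, which was scivMSC replicate 2. DNCB exceeded the others by a log2 fold change of 6.32 ± 1.24 (SE) against control (adjusted p = 0.00451), 5.62 ± 1.19 against scMSC (adjusted p = 0.0118) and 4.35 ± 1.12 against scivMSC (adjusted p = 0.0381). The scivMSC call was lost without any 1 DNCB or scivMSC library, or without control replicate 3, where the adjusted p ranged from 0.0503 to 0.132. Clec4d rose from 0.22% of the family's FPKM in control to 16.4% in DNCB.

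Clec4e (chr6:123281789-123289870), the neighbour of Clec4d on the opposite strand with 6.52 kb between them, was lower than Clec4d in DNCB. It measured 0.337, 0 and 0.182 FPKM in control and 9.89, 9.70 and 6.45 FPKM in DNCB. It measured 0.329, 0.402 and 0.0142 FPKM in scMSC and 0.0652, 1.29 and 0.130 FPKM in scivMSC. The groups other than DNCB overlapped each other, and none reached DNCB. Clec4d exceeded Clec4e by a ratio of 5.56, 5.62 and 5.13 in the 3 DNCB libraries, on the per-length FPKM scale. Clec4e differed by 5.46 ± 1.54 on the log2 scale from control (adjusted p = 0.0244), a call that was lost without control replicate 3 (adjusted p = 0.0734), DNCB replicate 1 (adjusted p = 0.0557) or DNCB replicate 2 (adjusted p = 0.0531). Against scMSC it was 5.07 ± 1.51 (adjusted p = 0.0502) and against scivMSC 4.14 ± 1.44 (adjusted p = 0.108), so neither was called. Limma on log2(FPKM + 0.1) called both (adjusted p = 0.00364 and 0.00918).

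Clec7a (chr6:129461591-129472779) measured 0.942, 0.738 and 1.85 FPKM in control and 8.51, 6.45 and 5.65 FPKM in DNCB. It measured 0.749, 0.529 and 0.182 FPKM in scMSC and 0.904, 1.21 and 0.467 FPKM in scivMSC. Every DNCB library was above every other, and scMSC replicate 3 was the lowest of all. In log2 units DNCB was higher by 2.38 ± 0.51 against control (adjusted p = 0.00700), 3.79 ± 0.55 against scMSC (adjusted p = 0.00244) and 2.99 ± 0.53 against scivMSC (adjusted p = 0.00957).

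Clec5a (chr6:40574894-40585821), which lies apart from both lectin clusters of chromosome 6, was the lowest of the 4 in DNCB. It measured 0.314, 0.166 and 0.613 FPKM in control and 3.18, 2.09 and 3.35 FPKM in DNCB. It measured 0.319, 0.263 and 0.16 FPKM in scMSC and 0.281, 0.635 and 0.0543 FPKM in scivMSC. DNCB again did not overlap them. Its log2 fold change came to 2.81 ± 0.70 against control (adjusted p = 0.0144), 3.50 ± 0.73 against scMSC (adjusted p = 0.0108) and 3.16 ± 0.72 against scivMSC (adjusted p = 0.0241). The control call was lost without control replicate 1 (adjusted p = 0.0598) or 2 (adjusted p = 0.056), and the scivMSC call without any 1 DNCB library or scivMSC replicate 1, at adjusted p up to 0.0955.

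**Figure D2:**
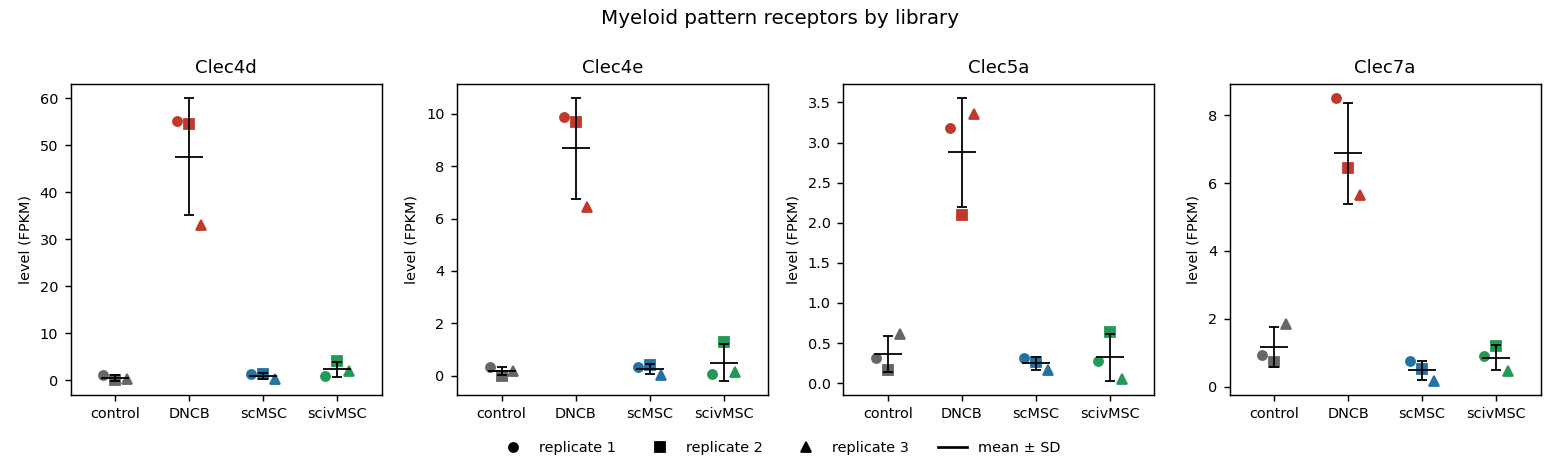
Levels of the 4 myeloid pattern receptors in FPKM (y axis, a separate linear scale for each gene) in the 3 libraries of each group, with the mean and SD as a black bar. For each gene the 3 DNCB libraries lie above the 9 others, between 33.1 and 55.0 FPKM for Clec4d and between 2.09 and 3.35 FPKM for Clec5a.

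Between the MSC groups and control, no difference of the 4 was called. Set against control, scMSC had log2 fold changes of 0.69 ± 1.04 for Clec4d, 0.39 ± 1.33 for Clec4e, -0.69 ± 0.67 for Clec5a and -1.41 ± 0.50 for Clec7a (adjusted p = 0.0773 for Clec7a). The DESeq2 test called Clec7a lower in scMSC than in control. For scivMSC they were 1.97 ± 1.05 for Clec4d (adjusted p = 0.260), 1.32 ± 1.33 for Clec4e, -0.35 ± 0.67 for Clec5a and -0.61 ± 0.49 for Clec7a. The standard errors leave room for more than 2-fold differences in either direction for Clec4e.

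Several markers of neutrophils moved with the myeloid pattern receptors. The 15 listed neutrophil genes summed to 132 to 225 FPKM in control, 2537 to 3553 FPKM in DNCB, 21.2 to 73.1 FPKM in scMSC and 49.6 to 195 FPKM in scivMSC. S100a8 and S100a9 carried most of the sum, with means of 51.6 and 94.9 FPKM in control and 915.5 and 1966 FPKM in DNCB. Of 14 tested, 11 were called higher in DNCB than in control and 1, Mpo, lower. Against scMSC 12 were called higher, and against scivMSC 9. Ly6g, a defining marker, was at 0 in all 9 libraries outside DNCB and had a mean of 3.15 FPKM in DNCB. The 15 monocyte and macrophage markers ran from 247 to 948 FPKM in control, 819 to 921 FPKM in DNCB, 200 to 495 FPKM in scMSC and 60.4 to 512 FPKM in scivMSC, none at 0 in any group. EdgeR called 0 of 15 in each of the 3 DNCB comparisons, where 1, 4 and 4 had an unadjusted p under 0.05 and DESeq2 called 0, 4 and 3. The part of these cells in the lectin differences was not tested.

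Among the dendritic and other myeloid receptors, DNCB was higher for Clec4n, Clec4a2 and Clec12a, and not for the dendritic receptor Clec9a. Of the 6 tested, 1 was called against control and 3 against each MSC group. Clec4n (chr6:123229843-123247021) measured 2.25, 1.07 and 2.75 FPKM in control and 15.8, 14.7 and 14.8 FPKM in DNCB. It measured 2.58, 0.803 and 1.60 FPKM in scMSC and 2.26, 4.63 and 0.584 FPKM in scivMSC. The DNCB libraries were close together and clear of the rest. DNCB was higher by 2.73 ± 0.63 in log2 than control (adjusted p = 0.00962), 3.18 ± 0.64 than scMSC (adjusted p = 0.00941) and 2.62 ± 0.62 than scivMSC (adjusted p = 0.0295). The scivMSC call was lost without any 1 DNCB library or without scivMSC replicate 1 or 3, at adjusted p up to 0.107.

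Clec4a2 (chr6:123106428-123143999), the inhibitory receptor DCIR, measured 0.977, 0.869 and 2.41 FPKM in control and 3.95, 3.03 and 4.27 FPKM in DNCB. It measured 1.59, 0.866 and 0.718 FPKM in scMSC and 0.679, 1.40 and 0.417 FPKM in scivMSC. DNCB was above all others, with control replicate 3 the nearest. Log2 fold changes were 1.24 ± 0.48 against control (adjusted p = 0.0858), 1.81 ± 0.49 against scMSC (adjusted p = 0.0352) and 2.18 ± 0.50 against scivMSC (adjusted p = 0.0251). Without control replicate 3 the control comparison was called (adjusted p = 0.0334). With all libraries it was called by DESeq2 (adjusted p = 0.0399) and by limma on log2(FPKM + 0.1) and log2(FPKM + 1) (adjusted p = 0.034 and 0.0161). Both MSC calls were lost without any 1 DNCB library, without scMSC replicate 2 or 3 for scMSC, or without scivMSC replicate 1 or 3 for scivMSC.

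Clec12a, an inhibitory receptor of granulocytes and monocytes that was chosen for mention after its values were seen, ran from 0.837 to 1.53 FPKM in DNCB and from 0.0963 to 0.738 FPKM in control. Its log2 fold change was 1.53 ± 0.72 against control (adjusted p = 0.149), 2.64 ± 0.75 against scMSC (adjusted p = 0.0430) and 2.75 ± 0.76 against scivMSC (adjusted p = 0.0493). Both calls were lost without control replicate 1, any 1 DNCB or scMSC library, or scivMSC replicate 1, and the call against scivMSC also without scivMSC replicate 3. Both were lost as well with library size alone as scaling and with no filter on mean FPKM. Clec4a3 was not called, at 0.64 ± 0.65, 1.72 ± 0.66 and 1.67 ± 0.66 in the same order. Clec9a, a receptor for actin of dead cells on cross-presenting dendritic cells, stood at 0.236 to 0.512 FPKM in DNCB and 0.147 to 0.490 FPKM in control. Its log2 fold changes were -0.07 ± 0.60, 1.14 ± 0.61 and 0.34 ± 0.60. Clec4b1 had the lowest log2 fold change of the 28 against control, -3.05 ± 1.20 (adjusted p = 0.0871), with 0.270, 1.12 and 1.95 FPKM in control and 0.189, 0.174 and 0.0587 FPKM in DNCB. DESeq2 called Clec4b1 lower in DNCB than in control, as did edgeR on counts divided by 4, on the 6 libraries of that comparison alone, and without scivMSC replicate 3. Clec4a4 and Clec4b2 were under the filter.

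These genes sit in a row on chromosome 6, where 9 Clec4 members span 368 kb (chr6:122921848-123289870). Against control, Clec4a1 and Clec4a3 at the low end had log2 fold changes of 0.58 and 0.64, and Clec4n, Clec4d and Clec4e at the far end 2.73, 6.32 and 5.46. Clec4b1 and Clec4a2 between them had -3.05 and 1.24. Against both MSC groups Clec4d and Clec4e also had the highest values of the 7 tested Clec4 genes of the cluster. Clec4 paralogs share sequence, so reads of near-identical copies could be split between them in counting.

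**Figure D3:**
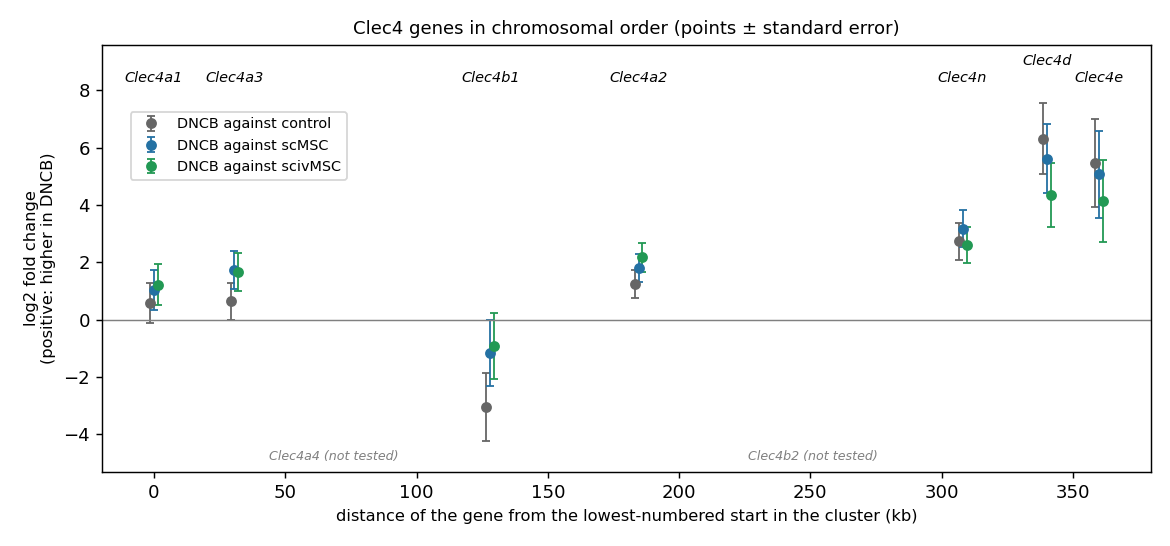
Log2 fold changes of the 7 tested Clec4 genes (y axis, positive where DNCB was higher, bars are standard errors) against distance in kb from the start of Clec4a1 (x axis). The 3 comparisons are drawn in grey (control), blue (scMSC) and green (scivMSC), slightly offset, and Clec4n, Clec4d and Clec4e at 308 to 360 kb lie above 2 in all of them.

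Neither tested resident macrophage lectin was called in a DNCB comparison. Clec10a (chr11:70156197-70170834), the galactose receptor Mgl1, measured 7.48, 9.90 and 17.7 FPKM in control and 7.55, 9.75 and 9.52 FPKM in DNCB. It measured 17.9, 5.79 and 5.16 FPKM in scMSC and 16.6, 17.8 and 1.68 FPKM in scivMSC. All 4 groups overlapped, and the DNCB log2 fold change was -0.56 ± 0.69 against control (adjusted p = 0.611), -0.11 ± 0.69 against scMSC and -0.40 ± 0.69 against scivMSC, with signs that turned under other settings in both MSC comparisons. Clec4a1 ran from 8.10 to 8.67 FPKM in DNCB, 2.28 to 10.1 FPKM in control, 2.23 to 6.38 FPKM in scMSC and 0.628 to 5.23 FPKM in scivMSC, and was not called, at 0.58 ± 0.70 against control (adjusted p = 0.6), 1.03 ± 0.70 against scMSC (adjusted p = 0.413) and 1.23 ± 0.70 against scivMSC (adjusted p = 0.342). All 3 DNCB libraries lay above the MSC libraries for Clec4a1 and inside the range of control. Clec4f, the Kupffer cell receptor of the liver, was under the filter, with at most 0.141 FPKM. For both Clec10a and Clec4a1, control replicate 3 and scMSC replicate 1 were the highest of their groups and scivMSC replicate 3 the lowest, as they were for the summed macrophage markers (948, 495 and 60.4 FPKM). The part of that marker level in the lectin values was not tested.

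Lectins that the symbol rule leaves out were measured beside them in the marker lists, and those named here were chosen after their values were seen. Mgl2, the paralog of Clec10a and a dendritic marker, fell from a mean of 9.51 ± 4.55 FPKM (SD, n = 3) in control to 0.844 ± 0.315 FPKM in DNCB, at -3.64 ± 0.60 in log2 (adjusted p = 0.00194). DNCB against scMSC gave Mgl2 a value of -2.23 ± 0.56 (adjusted p = 0.0266), and DNCB against scivMSC gave -1.68 ± 0.56 (adjusted p = 0.0938), which was not called. Cd207 (langerin of Langerhans cells) fell from 5.92 ± 0.798 FPKM to 1.63 ± 0.471 FPKM, at -2.04 ± 0.41 against control (adjusted p = 0.00494), and was also called against scMSC and scivMSC. Mrc1 of the macrophage list gave 0.87 ± 0.77 against control (adjusted p = 0.454), 1.23 ± 0.78 against scMSC and 1.06 ± 0.77 against scivMSC. Cd209a of the dendritic list gave -0.92 ± 0.57 (adjusted p = 0.276), 0.29 ± 0.57 and 0.33 ± 0.57 in the same order. Neither Mrc1 nor Cd209a was called. Of the 11 dendritic markers 2 were called lower in DNCB than in control, and of the 5 Langerhans markers 3. The dendritic markers summed to 22.9 to 27.3 FPKM in DNCB and 41.8 to 70.9 FPKM in control, none of them at 0 in all 3 libraries of a group. The sums were 19.55 to 43.95 FPKM in scMSC and 19.4 to 36.4 FPKM in scivMSC, so DNCB overlapped both MSC groups. Most of the difference from control lay in Mgl2 and H2-Ab1, the latter with means of 32.0 FPKM in control and 14.3 FPKM in DNCB. Itgax, Zbtb46 and Irf8 had log2 fold changes above 0 against control, none called. Whether the change of Mgl2 differed from that of Clec10a was not tested.

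**Figure D4:**
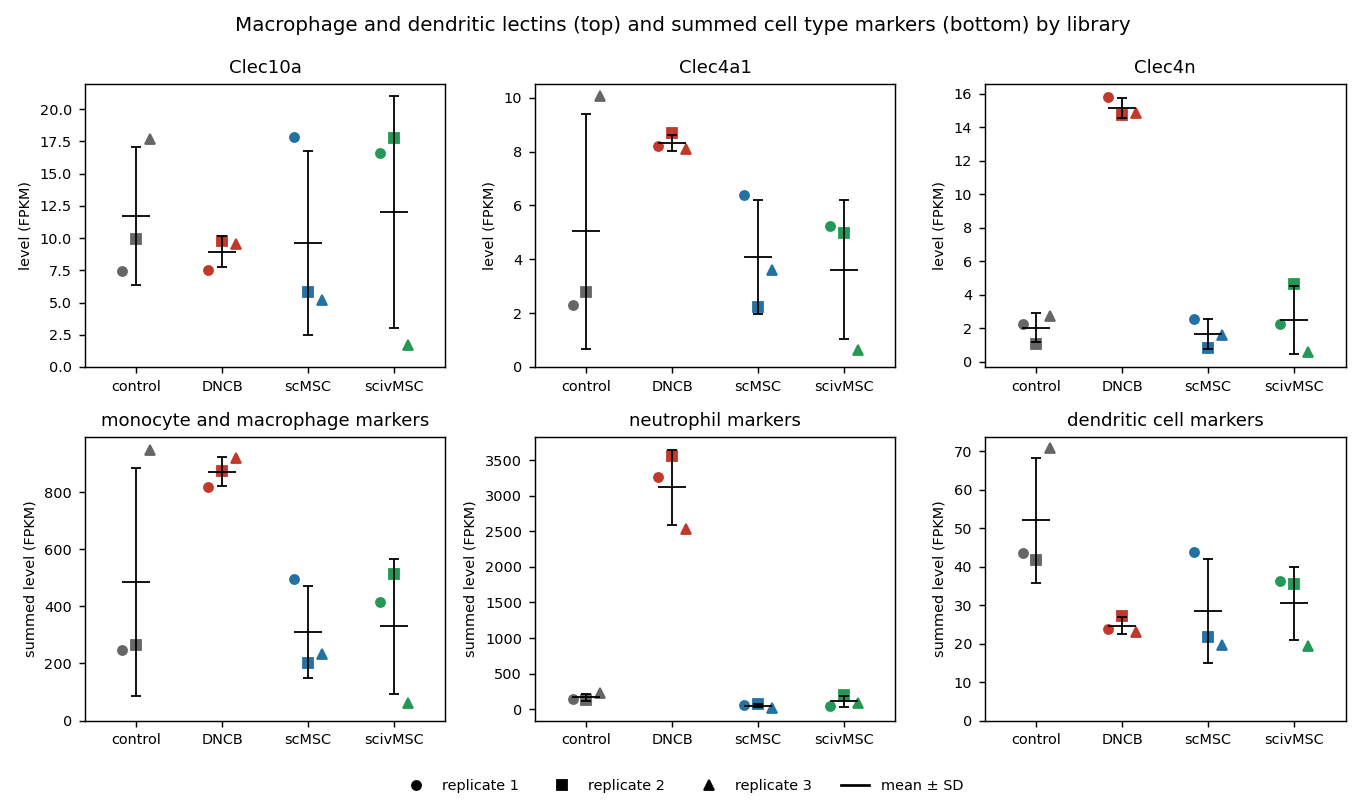
Clec10a, Clec4a1 and Clec4n in FPKM (top row) and the summed FPKM of the monocyte and macrophage, neutrophil and dendritic cell marker lists (bottom row) in the 3 libraries of each group, with the mean and SD in black. Clec4n sets DNCB apart as the neutrophil sum does, while Clec10a ranges from 1.68 to 17.9 FPKM across groups that overlap. S100a8 and S100a9 make up most of the neutrophil sum.

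NK-type receptors were rare in the skin of all groups, apart from a few genes. Of the 19 members, 16 stayed below 1 FPKM in every library, 16 were listed at 0 in at least 1 library, and 13 were under the filter. Klrd1 (CD94, the partner chain of NKG2 receptors) ran from 0 to 0.474 FPKM over the 12 libraries. Klrk1 (NKG2D, an activating receptor) ran from 0.0327 to 0.192 FPKM and was under the filter. Of the 6 tested, 1 was called higher in DNCB in each comparison, and this was Klra17 each time.

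Klra17 (chr6:129831154-129876672), which encodes Ly49Q, a member of the Ly49 family that is known from plasmacytoid dendritic cells and neutrophils rather than NK cells, was seen almost only in DNCB. It measured 0 FPKM in all 3 control libraries and 2.72, 3.88 and 3.44 FPKM in DNCB, from 244, 383 and 334 estimated counts. It measured 0.0385, 0 and 0 FPKM in scMSC and 0, 0.0613 and 0 FPKM in scivMSC, at most 6 estimated counts in a library. Set against a floor of 12 estimated counts in each library, DNCB was at least 21.2-fold higher than control, at least 26.6-fold higher than scMSC and at least 25.9-fold higher than scivMSC. The adjusted p was 0.00286, 0.00774 and 0.0153, and the last was lost without DNCB replicate 2 (adjusted p = 0.0566) or scivMSC replicate 1 (adjusted p = 0.0537).

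Klra2 (Ly49B, also known from myeloid cells), chosen for mention after its values were seen, measured 2.36, 1.71 and 1.95 FPKM in DNCB and 0.175, 0 and 0.363 FPKM in control. It reached at most 0.365 FPKM in scMSC and 0.262 FPKM in scivMSC, so DNCB did not overlap the 9 other libraries. It was not called, with log2 fold changes of 3.32 ± 1.73 (adjusted p = 0.191), 3.70 ± 1.76 (adjusted p = 0.218) and 4.51 ± 1.84 (adjusted p = 0.169). Limma on log2(FPKM + 0.1) called it in all 3 comparisons.

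Klrg2 was the NK-type member with the highest mean and differed little. It measured 2.48, 3.23 and 3.71 FPKM in control and 5.58, 4.92 and 4.34 FPKM in DNCB. It measured 4.13, 4.11 and 6.13 FPKM in scMSC and 3.83, 5.01 and 4.67 FPKM in scivMSC. The 3 groups that received DNCB overlapped each other and lay above control. Its log2 fold change in DNCB was 0.48 ± 0.21 against control (adjusted p = 0.12), 0.02 ± 0.21 against scMSC and 0.13 ± 0.21 against scivMSC. Klrb1b and Klrd1 had log2 fold changes of -1.38 ± 0.72 and -1.20 ± 1.18 against control, neither called.

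The 17 NK and T cell markers summed to 44.1 to 47.4 FPKM in DNCB and 21.2 to 27.8 FPKM in control, 10.2 to 22.7 FPKM in scMSC and 11.7 to 23.8 FPKM in scivMSC. Of 15 tested, 2 (Cd4 and Thy1) were called higher in DNCB than in control, and the median log2 fold change of the list was -0.83. Thy1, also on the fibroblast list, carried the sum, with a mean of 17.1 FPKM in control and 40.2 FPKM in DNCB. Without Thy1 the other 16 summed to 4.44 to 9.92 FPKM in control and 4.47 to 5.50 FPKM in DNCB, and 10 of the 14 tested had a log2 fold change below 0 against control. Among these were the cytotoxic granule genes Prf1 at -3.78 ± 1.86 (adjusted p = 0.165) and Nkg7 at -1.98 ± 1.22 (adjusted p = 0.269). The granule genes Gzma at 0.85 ± 1.28 (adjusted p = 0.68) and Gzmb at 0.81 ± 1.85 (adjusted p = 0.80) lay above 0. EdgeR called 0 of the 14 lower, and 2 of those below 0 had an unadjusted p under 0.05. Ly49 genes differ in number and sequence between mouse strains, and the reference genome comes from another strain than BALB/c. Klra17 is also overlapped on the opposite strand by the protein-coding gene model Gm17631 and the processed pseudogene Gm44248. The counting is not stated to use strand. How reads of strain-specific or overlapping copies were assigned was not tested.

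**Figure D5:**
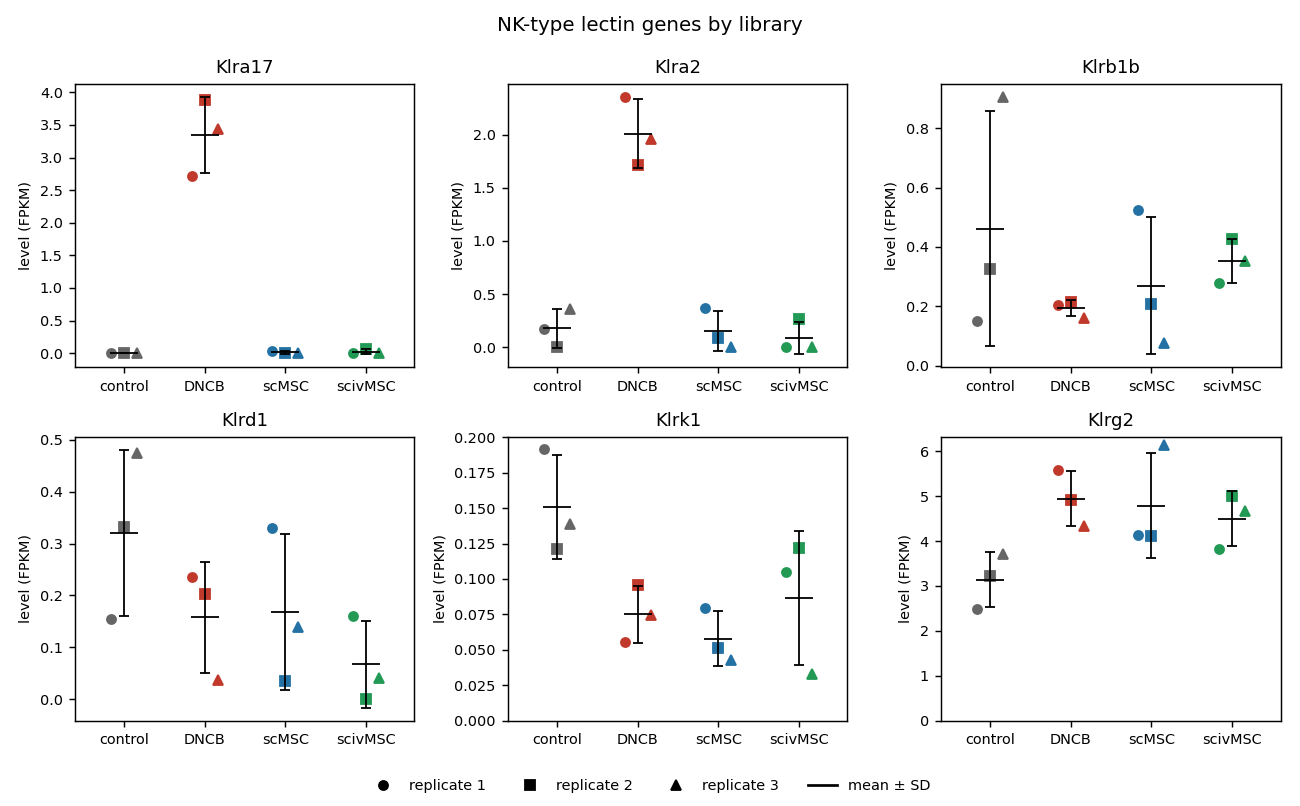
Levels of 6 NK-type lectin genes in FPKM (y axis, a separate linear scale for each gene) in the 3 libraries of each group, with the mean and SD in black. Klra17 and Klra2 are at 1.71 to 3.88 FPKM in DNCB and at most 0.365 FPKM elsewhere, while Klrb1b, Klrd1, Klrk1 and Klrg2 in DNCB overlap at least 1 MSC group.

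Of the Clec2 ligands, the major member was not called and 2 minor members were higher in DNCB. Clec2d (chr6:129180615-129186534), the inhibitory ligand Clr-b recognised by Klrb1b, was the second highest of the whole family. It measured 51.8, 57.4 and 64.4 FPKM in control and 58.2, 56.5 and 56.0 FPKM in DNCB. It measured 61.2, 37.5 and 34.4 FPKM in scMSC and 62.5, 63.9 and 38.4 FPKM in scivMSC. Its log2 fold change was -0.21 ± 0.21 against control (adjusted p = 0.519), 0.34 ± 0.21 against scMSC and 0.05 ± 0.21 against scivMSC.

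Clec2e (chr6:129091998-129100913), also called Clr-a, measured 0.123, 0.236 and 0.179 FPKM in control and 2.74, 2.13 and 2.51 FPKM in DNCB. It measured 0.240, 0.428 and 0.134 FPKM in scMSC and 0.451, 1.17 and 0.124 FPKM in scivMSC. DNCB was above all others, with scivMSC replicate 2 the nearest. On the log2 scale DNCB was higher by 3.57 ± 0.72 against control (adjusted p = 0.00520), 3.13 ± 0.71 against scMSC (adjusted p = 0.0154) and 2.10 ± 0.67 against scivMSC (adjusted p = 0.0853). The scMSC call was lost without scMSC replicate 3 (adjusted p = 0.0556). The scivMSC comparison was called in 6 of 22 alternatives. These were DESeq2 (adjusted p = 0.0142), limma on log2(FPKM + 0.1) and log2(FPKM + 1) (adjusted p = 0.0271 and 0.00516), and edgeR in the rest. The edgeR settings were counts divided by 4 (adjusted p = 0.0496), a replicate block (adjusted p = 0.049) and leaving out scivMSC replicate 2 (adjusted p = 0.0228).

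Clec2f (chr6:129014112-129020527) measured 0.524, 0.691 and 0.873 FPKM in control and 3.14, 2.30 and 1.71 FPKM in DNCB. It measured 0.583, 0.0685 and 0.573 FPKM in scMSC and 1.26, 0.878 and 0.348 FPKM in scivMSC. DNCB lay above the other groups, but only the scMSC comparison was called, at 2.51 ± 0.70 (adjusted p = 0.0384), and it was lost in 11 of 23 alternatives. The values against control and scivMSC were 1.58 ± 0.67 (adjusted p = 0.112) and 1.52 ± 0.67 (adjusted p = 0.206). Clec2i was not called, and Clec2g, Clec2h and Clec2m were under the filter. Clec2 paralogs are close in sequence, which leaves the split of reads between them uncertain.

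Among the vascular and platelet lectins, Clec14a, an endothelial surface protein linked to vessel growth, was higher in DNCB. Clec14a (chr12:58264720-58269290) measured 1.84, 1.64 and 1.49 FPKM in control and 4.79, 3.21 and 3.95 FPKM in DNCB. It measured 1.73, 1.68 and 1.84 FPKM in scMSC and 1.90, 1.85 and 1.02 FPKM in scivMSC. The 3 other groups overlapped each other closely and lay below DNCB. DNCB differed by a log2 fold change of 1.07 ± 0.23 against control (adjusted p = 0.00730), 1.16 ± 0.23 against scMSC (adjusted p = 0.00948) and 1.33 ± 0.24 against scivMSC (adjusted p = 0.00974). Against control it slipped under the fold limit without control replicate 3 or DNCB replicate 1, with adjusted p of 0.0351 and 0.0346. Clec1a, also endothelial, was not called (0.24 ± 0.49, 0.37 ± 0.49 and 0.05 ± 0.48).

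The 10 endothelial markers summed to 37.0 to 51.6 FPKM in control, 71.1 to 87.3 FPKM in DNCB, 31.5 to 51.2 FPKM in scMSC and 23.2 to 58.0 FPKM in scivMSC, with none at 0. Of these, 1 was called higher in DNCB than in control, 5 against scMSC and 2 against scivMSC. The part of endothelial RNA in the Clec14a values was not tested. Clec1b, the platelet receptor of podoplanin, was under the filter.

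The secreted lectins included the most abundant family member. Clec3b (chr9:123150946-123157432), tetranectin, which binds plasminogen, measured 128, 123 and 173 FPKM in control and 74.6, 96.6 and 84.9 FPKM in DNCB. It measured 136, 64 and 78.1 FPKM in scMSC and 156, 111 and 23.8 FPKM in scivMSC. The DNCB libraries lay below the control libraries and inside the range of both MSC groups. Log2 fold changes of DNCB were -0.90 ± 0.49 against control (adjusted p = 0.208), -0.13 ± 0.49 against scMSC and -0.16 ± 0.49 against scivMSC, and none was called. Clec3b and Clec2d together made up a mean of 81.3% of the family's FPKM in control and 49.7% in DNCB skin, with 78.2% under scMSC and 75.8% under scivMSC.

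Clec11a (chr7:44302687-44306902), a secreted growth factor of bone and blood progenitors, measured 2.26, 1.01 and 1.62 FPKM in control and 3.15, 2.73 and 2.90 FPKM in DNCB. It measured 1.56, 1.05 and 1.23 FPKM in scMSC and 1.48, 2.38 and 1.40 FPKM in scivMSC. DNCB was above the other 9 libraries by a small margin. It was called against scMSC alone, at 1.17 ± 0.30 (adjusted p = 0.0287), and this was lost without any 1 DNCB library or scMSC replicate 2 or 3. Against control and scivMSC the values were 0.66 ± 0.30 (adjusted p = 0.136) and 0.74 ± 0.30 (adjusted p = 0.169). Clec16a, an intracellular regulator of mitophagy that carries the family name, measured 8.36, 7.39 and 5.02 FPKM in control and 6.86, 5.68 and 6.39 FPKM in DNCB, with a log2 fold change of -0.33 ± 0.27 (adjusted p = 0.421). It measured 3.92, 7.22 and 4.05 FPKM in scMSC and 7.62, 7.30 and 7.11 FPKM in scivMSC.

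The adaptors and signalling genes below the receptors moved unevenly. Of 30 listed and tested, 5 were called higher and 1 lower in DNCB than in control, 5 higher and 1 lower against scMSC, and 4 higher and 1 lower against scivMSC, with median log2 fold changes of 0.48, 0.50 and 0.41. Of all tested genes, 14.2%, 8.5% and 5.46% were called in either direction in these comparisons. Those called higher made up 6.59%, 3.84% and 2.33%, and the medians were 0.02, -0.02 and -0.02. Fcer1g rose from 9.22 ± 6.78 FPKM (SD, n = 3) in control to 41.0 ± 2.91 FPKM in DNCB, at 2.00 ± 0.52 against control (adjusted p = 0.0165), 2.69 ± 0.53 against scMSC and 2.50 ± 0.52 against scivMSC, all called. Syk rose from 2.74 ± 1.48 to 8.51 ± 0.286 FPKM, at 1.47 ± 0.29 against control (adjusted p = 0.00465), and was not called against scMSC (0.88 ± 0.29) or scivMSC (0.93 ± 0.29). Tyrobp, the adaptor of Clec5a, had means of 20.8 ± 14.1 FPKM in control and 71.7 ± 5.89 FPKM in DNCB, and was called against scMSC (2.21 ± 0.57, adjusted p = 0.0287) and scivMSC (2.32 ± 0.57, adjusted p = 0.0333) but not against control (1.63 ± 0.56, adjusted p = 0.0555). Lyn, a Src family kinase, was called in all 3 comparisons, at 1.69 ± 0.31, 2.18 ± 0.31 and 2.04 ± 0.31. Vav3 (1.12 ± 0.12) and Src (1.07 ± 0.11) were the other two called higher against control, and Nfatc2, a calcium-regulated transcription factor, was called lower at -1.58 ± 0.17 (adjusted p = 0.000489). Card9 was at 2.65 ± 0.972 FPKM in control and 3.15 ± 0.319 FPKM in DNCB, with 0.07 ± 0.36 against control (adjusted p = 0.917).

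Of 21 listed ligands of these lectins 14 were tested, and 4 were called higher and 1 lower in DNCB than in control, with a median log2 fold change of 0.67. Pdpn (podoplanin, the ligand of Clec1b) was called in all 3 comparisons, at 1.71 ± 0.28 against control (adjusted p = 0.00194), 1.80 ± 0.28 against scMSC and 1.81 ± 0.28 against scivMSC. The Klrk1 ligands went apart, as Ulbp1 was higher at 1.90 ± 0.40 (adjusted p = 0.00601) and H60c, an epidermal ligand, lower at -1.85 ± 0.45 (adjusted p = 0.0127) against control. The other 2 called higher, S100a8 and S100a9, are also on the neutrophil list. Against scMSC 6 were called higher and 0 lower, and against scivMSC 3 and 1, with medians of 0.90 and 0.50. Of all tested genes, 6.59%, 3.84% and 2.33% were called higher against control, scMSC and scivMSC.

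The main edgeR fit called 0 of the 28 members between either MSC group and control, which does not show that the levels were equal. In scMSC against control 0 of 28 were called beside 9.32% of all genes, 3 of 28 had an unadjusted p under 0.05, and DESeq2 called 1, Clec7a. In scivMSC against control 0 of 28 were called beside 6.85% of all genes, 0 had an unadjusted p under 0.05, and DESeq2 called 0. Clec16a was called in the first without scMSC replicate 2 and Clec2e in the second without scivMSC replicate 3. Between the injection routes, 0 of 28 members were called beside 0.00457% of all genes, 0 had an unadjusted p under 0.05, and DESeq2 called 0. The log2 difference of scivMSC from scMSC was 1.27 ± 1.02 for Clec4d (adjusted p = 0.868), 0.93 ± 1.31 for Clec4e, 0.34 ± 0.67 for Clec5a and 0.80 ± 0.50 for Clec7a. With 3 mice a group and these errors, a 2-fold difference between the routes was not detectable for any of the 4.

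Total estimated counts ran from 63877153 to 75134001 a library, and the keratinocyte markers summed to 4359 to 19010 FPKM, so all 12 libraries hold skin RNA. By group these sums were 4359 to 9600 FPKM in control and 12990 to 19010 FPKM in DNCB. They were 4395 to 7703 FPKM in scMSC and 7393 to 14210 FPKM in scivMSC. Skeletal muscle markers summed to 14650 to 20600 FPKM in control and 4115 to 10770 FPKM in the other 3 groups. Fibroblast markers summed to 253 to 370 FPKM in control, 1971 to 2292 FPKM in DNCB, 261 to 777 FPKM in scMSC and 136 to 974 FPKM in scivMSC. In scivMSC replicate 3 the macrophage, endothelial, mast cell and fibroblast sums were the lowest of the 12 libraries. The part of these tissue differences in the lectin values was not tested. Left without control replicate 3 the count of members called against control was 8, of which 6 were shared with the 8 above, and left without scivMSC replicate 3 the count against scivMSC was 4.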

How the data were processed

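The authors deposited 1 table of 36400 genes with an FPKM value and an estimated count per library for 12 dorsal skin libraries. The submitters' processing notes name HISAT2 2.0, StringTie 1.3.0, Bowtie 0.12.2 and the build mm8, whereas the coordinates in the deposited table match GRCm38, where 51 of 51 members overlap the GENCODE M21 gene of the same ID. The deposited estimated counts are whole numbers, and steps near 4 per fragment are common among low values, so counting precision is lower than the totals imply and 12 estimated counts (about 3 fragments) were taken as the floor, which covers counting error only. No row lacked a gene identifier and the table held no comparisons by the authors.

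Testing covered the 21890 genes whose mean FPKM reached 0.1, with edgeR 4.0.16 (quasi-likelihood test, TMM scaling, 1 mean per group over all 12 libraries, no covariate), and p-values were adjusted by Benjamini-Hochberg over all genes tested. The standard error is the log2 fold change divided by the square root of the test's F. Alternatives used DESeq2 1.42.0, limma 3.58.1 on log2(FPKM + 0.1) and log2(FPKM + 1), other scalings, filters and library sets, and each library left out. An exact permutation test of 3 against 3 cannot give a two-sided p under 0.1 and was not used. Named in full were the 4 myeloid pattern receptors, in each other role the members with a mean of at least 0.5 FPKM and an adjusted p under 0.05 in a DNCB comparison or between the routes, and the member with the highest mean, plus up to 6 adaptors or ligands of smallest p and 5 fixed ones. Members named beyond this were chosen after their values were seen. Members and lists were chosen with earlier results of these data known. The blood samples of the study were not analysed here.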

Additional observations from a re-analysis of the deposited data

How the results depend on the processing

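Of the alternatives run on the number of members called, most left it within 1.5 times the reported one. Testing only genes of mean FPKM of at least 1 gave 5 against control and 5 against scivMSC, since fewer members were tested. Fitting the 6 libraries of a comparison alone gave 5 against scivMSC, and DESeq2 gave 1 for scMSC against control. For these 2 the cause was not tested. Leaving out each library gave 6 to 9 against control, 6 to 12 against scMSC, 2 to 9 against scivMSC, and 0 to 1 for each MSC group against control, from fewer samples. The study's methods name no pairing of mice by replicate number. Of 18 same-numbered pairs the deviations correlated between -0.21 and 0.149, and 1 was over 0.1. With 3 libraries a group such correlations cannot exclude a pairing. A fit with the replicate block called 8 members against control, 8 against scMSC, 4 in the scivMSC comparison and 0 elsewhere. It kept 3 of the 8 scivMSC calls, lost Clec4d, Clec5a, Clec4n, Clec4a2 and Clec12a, and gained Clec2e, and of the 11 scMSC calls it lost Clec2f, Clec4a2 and Clec12a. DESeq2 gave no adjusted p for Clec4e.

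Log2 fold changes turned sign for members near 0. Clec10a against scMSC became 0.13 and 0.097 by limma with 0.1 and 1 added and 0.043 with the replicate block, and ran from -0.41 to 0.65 as each library was left out (0.0043 without DNCB replicate 1). Against scivMSC it became 0.15 and 0.041 by limma. Leaving out each library, Klrg2 against scMSC ran from -0.094 to 0.23, Clec2d against scivMSC from -0.13 to 0.16, Clec3b against scMSC from -0.28 to 0.22 and Clec3b against scivMSC from -0.63 to 0.35, the last being 0.19 and 0.18 by limma. The cause was not tested. In all, 15 values of named members turned, 63 lost and 26 gained a call, and 988 kept their direction and side. Members under 0.1 FPKM were shallow and were not tested in the main fit. Of these, 1 had all 3 DNCB libraries above the 9 others. This was Clec12b, with 48, 27 and 23 estimated counts in DNCB. It had at most 4 in a control library, 0 in scMSC and at most 8 in scivMSC. With no filter on mean FPKM, edgeR called it against scMSC alone.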
